A study of Homo sapiens with 12 samples.

Results

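TP63, SOX2 and 7 further genes of squamous epithelium (FOXE1, PITX1, PAX9, TFAP2A, TFAP2C, TRIM29 and BNC1) were followed through 12 RNA-seq libraries from 2 squamous carcinoma lines. KLF5, a transcription factor, had been silenced in BICR31 cells and overexpressed, in wild-type or mutant form, in HCC95 cells. The genes were taken by symbol, 9 of the 57820 gene IDs in each file, and the same Ensembl ID gave the row in both cell lines. The cells of the first line, BICR31, come from a squamous cell carcinoma of the head and neck and received a small interfering RNA that silences KLF5 (siKLF5, 3 libraries) or a control siRNA (siNC, 3 libraries), with no engineered allele named in either group. HCC95 cells, from a squamous cell carcinoma of the lung, overexpressed an empty vector (Empty), wild-type KLF5 (WT) or KLF5 with the E419Q substitution (E419Q), with 2 libraries in each group. The labels name no deletion of the line's own KLF5 gene in any of the 3 HCC95 groups. Libraries are called A, B and C after the labels, which do not say whether they came from separate cultures, so a p-value here sets a difference against library-to-library spread that may be purely technical. The sources used here do not give the siRNA sequence, the vector and its promoter, the harvest time or whether a single clone was used.

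KLF5 is a zinc-finger protein of dividing epithelial cells that binds GC-rich and GT-rich DNA, and E419Q lies in its DNA-binding zinc-finger domain. TP63 encodes p63, a relative of p53 that sets up and maintains the basal layer of stratified epithelia. SOX2 encodes an HMG-box factor of the embryonic foregut, lies with TP63 on the long arm of chromosome 3, and is often amplified together with it in squamous carcinomas. The forkhead factor FOXE1, the homeodomain factor PITX1, the paired-box factor PAX9 and the AP-2 factors TFAP2A and TFAP2C act in oral, pharyngeal or surface ectoderm development. BNC1 encodes basonuclin 1, a zinc-finger protein of basal keratinocytes, and TRIM29 a tripartite-motif protein abundant in squamous epithelium.

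Promoter windows are shown because KLF5 binds GC-rich DNA, for the 5 genes with a RefSeq window whose call held under every alternative analysis in at least 1 comparison. Each window is the 250 bases before a RefSeq transcription start (GRCh38.p14), written 5′ to 3′ on the gene's strand, with capitals marking GGGCGG (a GC box) or GGGTGNGG (a GT box) on either strand. The windows are SOX2 at chr3:181711675-181711924 (plus strand), TP63 at chr3:189631139-189631388 (plus strand), FOXE1 at chr9:97852976-97853225 (plus strand), PITX1 at chr5:135034229-135034478 (minus strand) and BNC1 at chr15:83284665-83284914 (minus strand, the first of its windows).
SOX2: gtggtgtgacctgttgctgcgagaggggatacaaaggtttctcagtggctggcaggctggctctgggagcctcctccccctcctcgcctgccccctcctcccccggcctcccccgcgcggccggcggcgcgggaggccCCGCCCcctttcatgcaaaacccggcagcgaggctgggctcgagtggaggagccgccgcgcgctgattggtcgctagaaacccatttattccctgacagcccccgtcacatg
TP63: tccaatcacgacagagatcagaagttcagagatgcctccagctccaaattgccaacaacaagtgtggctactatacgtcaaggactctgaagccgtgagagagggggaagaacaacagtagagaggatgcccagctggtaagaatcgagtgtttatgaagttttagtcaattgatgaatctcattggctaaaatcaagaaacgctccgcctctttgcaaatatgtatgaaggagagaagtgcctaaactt
FOXE1: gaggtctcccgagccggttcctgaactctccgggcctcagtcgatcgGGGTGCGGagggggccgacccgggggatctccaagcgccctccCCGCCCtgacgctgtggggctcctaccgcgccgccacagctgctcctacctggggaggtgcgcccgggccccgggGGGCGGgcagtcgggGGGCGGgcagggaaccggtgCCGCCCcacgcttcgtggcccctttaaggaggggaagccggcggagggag
BNC1: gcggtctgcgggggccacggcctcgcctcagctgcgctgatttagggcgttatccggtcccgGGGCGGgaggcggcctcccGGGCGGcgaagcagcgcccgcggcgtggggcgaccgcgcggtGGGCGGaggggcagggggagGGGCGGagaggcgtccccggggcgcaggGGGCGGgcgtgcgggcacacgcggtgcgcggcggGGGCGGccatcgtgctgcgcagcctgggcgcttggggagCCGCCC
PITX1: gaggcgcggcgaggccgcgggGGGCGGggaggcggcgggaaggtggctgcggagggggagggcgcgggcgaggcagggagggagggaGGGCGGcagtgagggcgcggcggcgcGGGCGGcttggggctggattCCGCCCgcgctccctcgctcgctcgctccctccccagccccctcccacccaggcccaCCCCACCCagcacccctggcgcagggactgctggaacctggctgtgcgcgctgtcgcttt
The first BNC1 window held 7 GC boxes and no GT box. The FOXE1 and PITX1 windows held 4 GC boxes and 1 GT box each, the SOX2 window 1 GC box, and the TP63 window neither. Of the windows not shown, the second of BNC1 held 1 GC box and no GT box. For PAX9 the first window held 1 GT box and the second 2 GC boxes. The first TFAP2A window held neither and the second 1 GT box. Over all 35114 RefSeq windows of this length, 42.6% held a GC box and 16.7% a GT box. G or C made up 81.6% of the first BNC1 window and 72.4% of the second. The share was 79.2% for PITX1, 75.6% for FOXE1, 68.8% for SOX2 and 44% for TP63, beside a median of 58% over all windows. These matches describe letters only, and no binding was measured. In GENCODE 29, 6 of the 14 TP63 transcripts start at the upstream promoter and 8 start 158 kb or more further on. An internal promoter gives the N-terminally shortened form that predominates in basal squamous cells. Which of the 8 transcripts start at that promoter was not determined. The window shown belongs to the upstream start, and the gene-level values used here do not separate the forms. RefSeq windows matched 7 of the 9 genes, all but TFAP2C and TRIM29.

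The depth was modest. HCC95 libraries held 3074139 to 4643792 expected counts, and BICR31 libraries an estimated 1922360 to 2296190 counts. Each of the 9 genes was detected in all 12 libraries, with 14 to 561 estimated counts in BICR31 and 40 to 3000 counts in HCC95. KLF5 itself followed the labels: it was 2.64-fold lower with siKLF5 than with siNC (986, 1008 and 882 against 2682, 2289 and 2619.6 units), and in HCC95 it rose from 149.9 and 136 CPM with the empty vector to 420 and 404 CPM with WT and 427 and 442 CPM with E419Q. KLF5 did not pass the test between E419Q and WT (1.04-fold, 95% interval 0.954 to 1.14; adjusted p = 0.683, edgeR). The squamous markers KRT5, KRT14, KRT17, KRT6A, DSG3, DSC3 and PKP1 were all above 0 in every library. They summed to 7140 to 7270 CPM with siNC, 4482 to 4690 with siKLF5 and 18725 to 19766 with Empty. The sum was 22029 to 23155 CPM in WT libraries and 13420 to 14273 in E419Q libraries. KRT5 had the most counts of the 7 in every library (an estimated 5186 to 7526 in BICR31, 32968 to 66820 in HCC95). With siKLF5, 5 of the 7 were called lower and DSG3 higher (log2 fold change 0.82, adjusted p = 2.71e-07, limma). Against the empty vector, WT had 6 called higher and KRT6A lower (log2 fold change -0.66). With E419Q, 3 were called higher and 4 lower. The 4 general epithelial markers CDH1, EPCAM, KRT8 and KRT18 summed to 6037 to 6324 CPM with siNC and 4492 to 4705 with siKLF5. KRT8 (log2 fold change -0.75) and KRT18 (-0.73) fell with siKLF5. CDH1 rose (0.81, adjusted p = 1.23e-10, limma) and EPCAM did not pass the test (0.13). In HCC95 the 4 summed to 2219 to 2299 CPM with Empty, 2517 to 2715 in WT libraries and 3898 to 4101 in E419Q libraries. Against Empty, WT had KRT8 called higher (0.38) and CDH1 lower (-0.32), and E419Q had all 4 called higher. The 5 fibroblast markers summed to 104 to 123 CPM with siKLF5 against 49.4 to 52.7 with siNC, nearly all of it COL1A1 and COL1A2. COL1A1 was 2.20-fold higher with siKLF5 (adjusted p = 1.21e-06, limma) and COL1A2 2.52-fold (adjusted p = 2.53e-06, limma). The defining markers DCN and LUM had at most 1 count in any library. In HCC95 the 5 summed to 10.8 to 12.7 CPM with Empty, 7.51 to 8.25 in WT libraries and 14.0 to 16.6 in E419Q libraries. There COL1A1 was 1.98-fold higher with E419Q than with WT (adjusted p = 0.0174, edgeR). The 4 immune markers summed to 32.0 to 39.7 CPM with siKLF5, 17 to 19.7 with siNC, 65.4 to 65.9 with Empty, 47.4 to 49.1 in WT libraries and 49.8 to 51.3 in E419Q libraries. They were carried by CD68, while CD3E was at 0 in all 12 libraries and PTPRC had at most 2 counts. CD68 was higher with siKLF5 than with siNC (log2 fold change 0.97, adjusted p = 0.00017, limma). Against the empty vector CD68 was lower with WT (log2 fold change -0.45, adjusted p = 0.00249, edgeR) and with E419Q (-0.43, adjusted p = 0.00479, edgeR). The 2 endothelial markers with values, VWF and CDH5, summed to 11.3 to 19.1 CPM with siKLF5 and 5.72 to 7.24 with siNC. In HCC95 the sum was 11.4 to 16.5 CPM with Empty or WT and 26.3 to 28.5 with E419Q. VWF was 2.32-fold higher with siKLF5 than with siNC (adjusted p = 0.0222, limma). With E419Q it was 2.28-fold higher than with the empty vector (adjusted p = 7.32e-05, edgeR) and 1.91-fold higher than with WT (adjusted p = 0.00162, edgeR). The 6 glandular markers summed to at most 2.73 CPM in BICR31, and in HCC95 to 3.47 to 4.74 CPM with Empty, 7.96 to 11.5 in WT libraries and 8.92 to 12.4 in E419Q libraries. Of these, NKX2-1 was 2.86-fold higher with WT (adjusted p = 0.0407, edgeR; 2 to 24 counts in HCC95) and FOXA2 3.98-fold higher with E419Q (adjusted p = 0.00334, edgeR; 6 to 36 counts) than with the empty vector. Neuroendocrine markers summed to at most 4.55 CPM, with INSM1 and NEUROD1 at 0 throughout. What part, if any, these marker shifts had in the results was not tested.

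Silencing KLF5 in BICR31 lowered 4 of the 9 genes, TP63, TRIM29, BNC1 and FOXE1, by 1.76-fold to 2.06-fold, and raised TFAP2C by 1.24-fold. SOX2, PITX1, PAX9 and TFAP2A did not pass the test. Values for BICR31 are deposited normalised units, tested with limma on log2(units + 1), and a gene is called at an adjusted p below 0.05 over the 15710 genes tested. Of all tested genes 10.8% were called lower and 15.3% higher, beside 4 and 1 of the 9 genes here. Over all genes 58.7% of calls were rises, a share that was 48.5% after quantile normalisation (2005 higher, 2129 lower). The median log2 fold change of the 9 genes was -0.05, beside 0.04 over all genes tested. The groups' libraries did not overlap for 7 of the 9 genes (4 lower, 3 higher), where 40.0% of all tested genes did not overlap. In such bulk samples fewer cells of a kind and less RNA per cell cannot be told apart.

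TP63 read 2282, 2307 and 2096 units with siNC and 1249, 1175 and 1370.1 units with siKLF5. All 3 silenced libraries lay below all 3 controls, and the mean was 1265 ± 98.5 units (SD, n = 3) against 2228 ± 115. The log2 fold change of TP63 was -0.82 (SE 0.0870; adjusted p = 2.09e-06, limma), 1.76-fold lower. Among all genes tested, 7.53% fell further than TP63.

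TRIM29 was the most abundant of the 9 genes in units, at 4945, 4523 and 5068 with siNC and 2810.1, 2792 and 2457 with siKLF5. The groups did not overlap, with means of 4845 ± 286 and 2686 ± 199 units (SD, n = 3). Its log2 fold change was -0.85 (SE 0.0705; adjusted p = 1.19e-07, limma), 1.80-fold lower. BNC1 read 1291, 1039.5 and 994 units with siNC and 616, 583 and 535 units with siKLF5. Every silenced library was below every control, and BNC1 fell by 0.93 on the log2 scale (SE 0.125; adjusted p = 2.89e-05, limma), 1.90-fold lower.

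FOXE1 had the lowest level of the 9 genes in BICR31, with 282, 191 and 334 units with siNC and 131, 142 and 110.2 units with siKLF5, from 21 to 37 and 14 to 17 estimated counts per library. The silenced libraries again lay below the controls, though siNC library B was close to them. FOXE1 fell by 1.04 on the log2 scale (SE 0.261; adjusted p = 0.00668, limma), 2.06-fold lower, with a 95% interval of the fold of 0.332 to 0.713. It stayed past the threshold in all 12 alternative analyses, up to an adjusted p of 0.0497 (limma).

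SOX2, the 3q partner of TP63, read 391, 310.04 and 316 units with siNC and 411, 267 and 315 units with siKLF5. The groups overlapped, the silenced libraries reaching both higher and lower than the controls, and the fold was 0.966 with a 95% interval of 0.725 to 1.29 (adjusted p = 0.886, limma). The interval for SOX2 lies above that for TP63, 0.499 to 0.644, although the difference between the genes was not itself tested. SOX2 rested on 32 to 50 estimated counts per library, and its log2 fold change turned from -0.05 to 0.09 without siKLF5 library B and to 0.06 without siNC library A. The long noncoding RNA SOX2-OT, which overlaps SOX2 on the same strand, had at most 1 estimated count in BICR31.

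TFAP2C, the second AP-2 factor, read 1300.0, 1204 and 1102 units with siNC and 1487, 1642 and 1346 units with siKLF5. Its log2 fold change was 0.31 (SE 0.101; adjusted p = 0.0307, limma), and no silenced library overlapped a control. The call rested on single libraries: the adjusted p was 0.0818 without siKLF5 library A, 0.151 without siKLF5 library B, 0.0693 without siNC library B and 0.129 without siNC library C, 0.0758 after quantile normalisation and 0.139 without the mean-variance trend. TFAP2A read 1636, 1386 and 1499.5 units with siNC and 1454, 1758 and 1583 units with siKLF5, overlapping, for a fold of 1.06 (95% interval 0.921 to 1.22; adjusted p = 0.575, limma). PITX1 read 736, 675 and 668 units with siNC and 871, 850.0 and 764 with siKLF5. PITX1 separated the groups without passing the test (log2 fold change 0.26, SE 0.116; adjusted p = 0.121, limma). PAX9 read 636, 620.1 and 596 units with siNC and 690.2, 708 and 661 with siKLF5, separated as well (log2 fold change 0.15, SE 0.120; adjusted p = 0.394, limma).

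**Figure D1:**
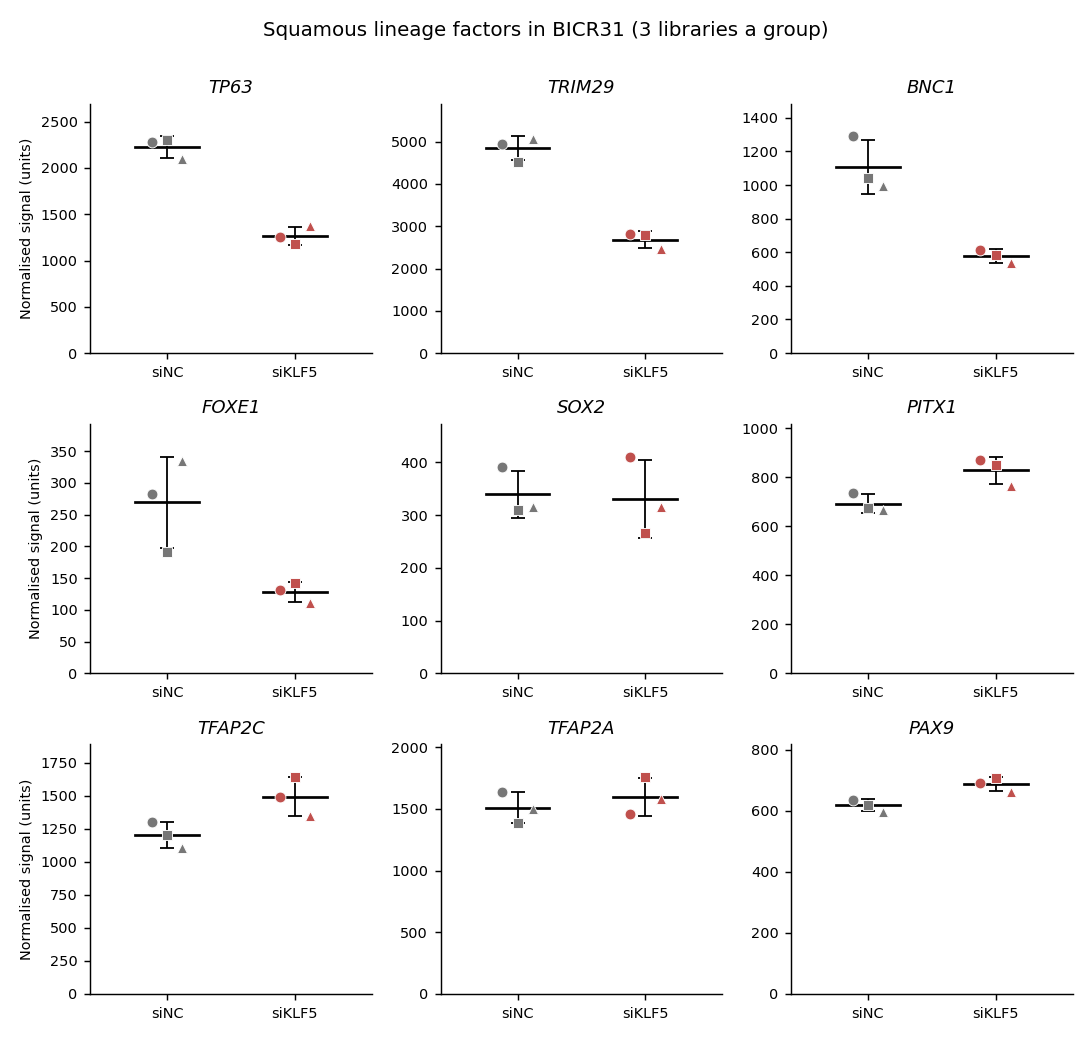
Deposited normalised units (vertical axis, from 0) of the 9 genes in BICR31 with siNC and siKLF5. Points are libraries (circle A, square B, triangle C), bars the mean and SD (n = 3). TP63, TRIM29, BNC1 and FOXE1 sit lower with siKLF5 in all 3 libraries, while the SOX2 and TFAP2A libraries overlap.

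Raising wild-type KLF5 in HCC95 moved the same 4 genes the opposite way: TP63, TRIM29, BNC1 and FOXE1 were 1.43-fold to 1.97-fold higher than with the empty vector, and PAX9 was 1.47-fold higher. HCC95 was tested with edgeR's quasi-likelihood method on 12933 genes, and levels are CPM, counts relative to the library total on the usual scale. Of all tested genes 10.8% were called higher and 12.1% lower, beside 5 and 0 of the 9 genes. The libraries of the groups did not overlap for 8 of the 9 genes (7 higher, 1 lower), where 61.0% of all tested genes did not overlap. The median log2 fold change of the 9 genes was 0.51, beside 0.00 over all genes tested. Across both cell lines, which share no library, 4 of the 9 genes were lower with siKLF5 and higher with WT, as were 1.75% of the 12432 genes tested in both (217 genes).

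TP63 read 385 and 351 CPM with the empty vector and 708 and 751 CPM with WT. Its log2 fold change was 0.98 (SE 0.0675; adjusted p = 5.83e-10, edgeR), a 1.97-fold rise with a 95% interval of 1.79 to 2.17. A larger rise was found for 3.29% of all genes tested. The mean TP63 transcript length that RSEM assigned lay between 3388 and 3794 bases over the 6 libraries. TRIM29 read 451 and 387 CPM with the empty vector and 674 and 661 CPM with WT, a log2 fold change of 0.67 (SE 0.0641; adjusted p = 1.04e-07, edgeR). For BNC1 the values were 43.7 and 49.3 CPM against 69.9 and 71.4 CPM (log2 fold change 0.58, SE 0.105; adjusted p = 0.000316, edgeR). In all 3 genes both WT libraries exceeded both controls.

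FOXE1 read 90.3 and 76.4 CPM with the empty vector and 124 and 115 CPM with WT, a log2 fold change of 0.51 (SE 0.0909; adjusted p = 0.000239, edgeR). PAX9 read 11.6 and 10.98 CPM with the empty vector and 16.5 and 16.8 CPM with WT, from 40 to 67 counts. PAX9 passed the test narrowly (log2 fold change 0.55, SE 0.197; adjusted p = 0.0467, edgeR) and lost the call in 10 of 11 alternative analyses. Its adjusted p (edgeR) was 0.0535 without E419Q library A, 0.0538 without E419Q library B, 0.0833 without Empty library A, 0.176 without Empty library B, 0.141 without WT library A and 0.165 without WT library B. Per transcript length PAX9 did not separate: its TPM was 6.99 and 7.10 with the empty vector and 7.28 and 6.91 with WT, as the mean length RSEM assigned to it ranged from 2275 to 3819 bases over the 6 libraries.

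SOX2 read 56.7 and 53.0 CPM with the empty vector and 45.8 and 49.1 CPM with WT. Both WT libraries lay below both controls, but the fold of 0.863 (95% interval 0.740 to 1.01) did not pass the test (adjusted p = 0.161, edgeR). PITX1 read 183 and 169 CPM against 187 and 212 CPM with WT (log2 fold change 0.17; adjusted p = 0.103, edgeR). TFAP2C read 30.7 and 27.6 CPM against 32.4 and 32.8 CPM (log2 fold change 0.16; adjusted p = 0.421, edgeR). These 3 genes showed small differences beside those of TP63 and TRIM29. TFAP2A read 36.2 and 28.0 CPM against 35.0 and 25.8 CPM, overlapping (log2 fold change -0.08; adjusted p = 0.773, edgeR), and the sign of that value turned without Empty library A (0.09) and without WT library B (0.13).

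KLF5 E419Q raised 7 of the 9 genes over the empty vector and lowered none, with FOXE1 (2.61-fold) and SOX2 (1.94-fold) moving most. TFAP2C was 1.61-fold higher, TP63 and PITX1 1.37-fold, BNC1 1.34-fold and TRIM29 1.26-fold. Of all genes tested, 10.4% were called higher and 10.8% lower. All 9 genes separated the groups' libraries (8 higher, 1 lower), where 58.8% of all tested genes did. The median log2 fold change of the 9 genes was 0.45, beside 0.00 over all genes. The WT and E419Q comparisons share the 2 empty-vector libraries, so their values are set side by side here, and the difference between them is the direct test of E419Q against WT further on.

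SOX2 read 108 and 109 CPM with E419Q, beside 56.7 and 53.0 CPM with the empty vector. Its log2 fold change was 0.96 (SE 0.0951; adjusted p = 1.25e-07, edgeR), with a 95% interval of the fold of 1.69 to 2.22. The 2 E419Q libraries differed little from each other, and 3.92% of tested genes rose further. SOX2-OT had 8 and 11 counts with E419Q, 9 and 5 with WT and 2 and 5 with the empty vector, beside 161 to 366 counts for SOX2. FOXE1 read 217 and 224 CPM with E419Q against 90.3 and 76.4 CPM (log2 fold change 1.38, SE 0.0856; adjusted p = 6.60e-11, edgeR), and 1.55% of tested genes rose further.

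TP63 read 475 and 550.1 CPM with E419Q against 385 and 351 CPM with the empty vector (log2 fold change 0.45, SE 0.0692; adjusted p = 4.37e-05, edgeR). TRIM29 read 533 and 544 CPM against 451 and 387 CPM (log2 fold change 0.34, SE 0.0654; adjusted p = 0.000626, edgeR). In both genes the E419Q libraries lay between those of the empty vector and those of WT. BNC1 read 67.0 and 60.9 CPM against 43.7 and 49.3 CPM (log2 fold change 0.42, SE 0.110; adjusted p = 0.00836, edgeR). The BNC1 call was lost without E419Q library A (adjusted p = 0.105, edgeR), without Empty library A (0.0682) and with DESeq2 (0.252).

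TFAP2C read 46.2 and 49.0 CPM with E419Q against 30.7 and 27.6 CPM (log2 fold change 0.69, SE 0.127; adjusted p = 0.000362, edgeR), a call that DESeq2 did not make (adjusted p = 0.0687). PITX1 read 239.7 and 249 CPM against 183 and 169 CPM (log2 fold change 0.45, SE 0.0750; adjusted p = 0.000123, edgeR). Both genes were higher in each E419Q library than in any other HCC95 library. PAX9 read 13.0 and 13.97 CPM against 11.6 and 10.98 CPM (log2 fold change 0.23; adjusted p = 0.482, edgeR). TFAP2A had its lowest mean with E419Q, 27.65 and 21.7 CPM against 36.2 and 28.0 CPM, and was the only one of the 9 genes to lie lower (log2 fold change -0.39, SE 0.177; adjusted p = 0.123, edgeR). Without Empty library B, TFAP2A passed the threshold (log2 fold change -0.59; adjusted p = 0.0394, edgeR).

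**Figure D2:**
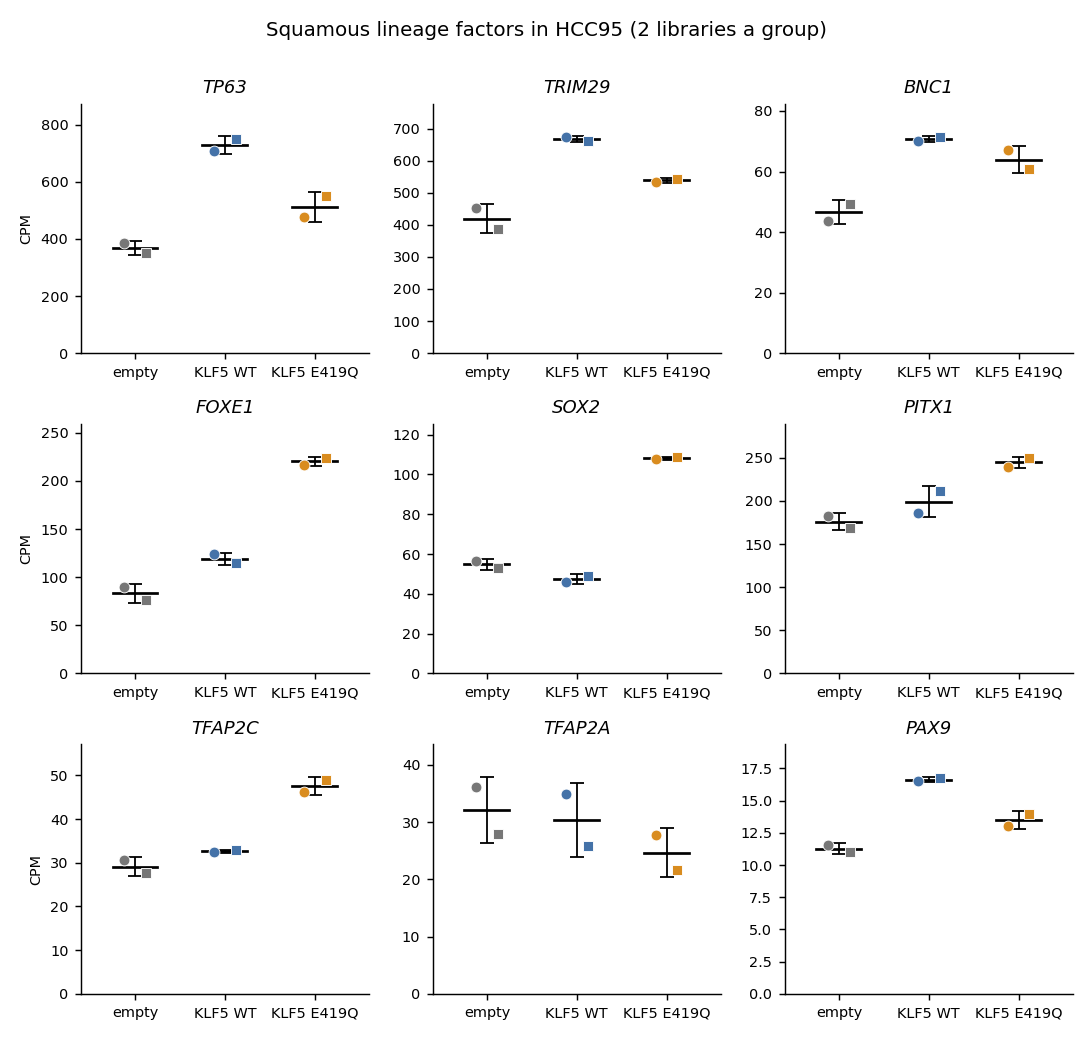
CPM (vertical axis, from 0) of the 9 genes in HCC95 with the empty vector, KLF5 WT or KLF5 E419Q. Points are libraries (circle A, square B), bars the mean and SD (n = 2). TP63, TRIM29, BNC1 and PAX9 peak with WT, while SOX2, FOXE1, PITX1 and TFAP2C peak with E419Q. BNC1 and PAX9 did not pass the test between WT and E419Q.

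Set directly against wild-type KLF5, E419Q gave more SOX2, FOXE1, TFAP2C and PITX1 and less TP63 and TRIM29. SOX2 was 2.25-fold higher with E419Q than with WT and FOXE1 1.82-fold higher, while TP63 was 1.44-fold and TRIM29 1.26-fold lower. Beside these 4 rises and 2 falls among 9 genes, 4.41% of all tested genes were called higher and 3.59% lower. The groups' libraries did not overlap for 8 of the 9 genes (4 higher, 4 lower), beside 49.0% of all tested genes. The median log2 fold change over the 9 genes was -0.16, beside -0.00 over all genes.

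SOX2 read 45.8 and 49.1 CPM with WT and 108 and 109 CPM with E419Q (log2 fold change 1.17, SE 0.0987; adjusted p = 1.72e-08, edgeR), with a 95% interval of the fold of 1.95 to 2.59. It ranked 166th from the largest rise among the 12933 genes tested. FOXE1 read 124 and 115 CPM with WT and 217 and 224 CPM with E419Q (log2 fold change 0.87, SE 0.0819; adjusted p = 1.03e-07, edgeR). TP63 read 708 and 751 CPM with WT and 475 and 550.1 CPM with E419Q (log2 fold change -0.53, SE 0.0667; adjusted p = 7.99e-06, edgeR). TRIM29 fell by 0.33 on the log2 scale (SE 0.0639; adjusted p = 0.00129, edgeR), from 674 and 661 CPM to 533 and 544 CPM. Thus SOX2 and TP63 moved in opposite directions between the KLF5 forms, and each of these 4 calls held in all 11 alternative analyses.

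TFAP2C read 32.4 and 32.8 CPM with WT and 46.2 and 49.0 CPM with E419Q (log2 fold change 0.53, SE 0.126; adjusted p = 0.00834, edgeR). Its call was lost without E419Q library B (adjusted p = 0.111, edgeR), without WT library A (0.0659), without WT library B (0.0709) and with DESeq2 (0.427). PITX1 read 187 and 212 CPM against 239.7 and 249 CPM (log2 fold change 0.28, SE 0.0744; adjusted p = 0.0212, edgeR), and was lost without E419Q library A (0.0932), without E419Q library B (0.200), without WT library A (0.305) and with DESeq2 (0.252). The mean length RSEM assigned ranged from 2159 to 2866 bases for TFAP2C and from 1653 to 2041 for PITX1 over the 6 libraries. Their calls rest on counts not scaled by length. BNC1 did not pass the test (fold 0.892, 95% interval 0.768 to 1.04; adjusted p = 0.435, edgeR), nor did PAX9 (log2 fold change -0.32; adjusted p = 0.427, edgeR) or TFAP2A (log2 fold change -0.31; adjusted p = 0.377, edgeR).

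**Figure D3:**
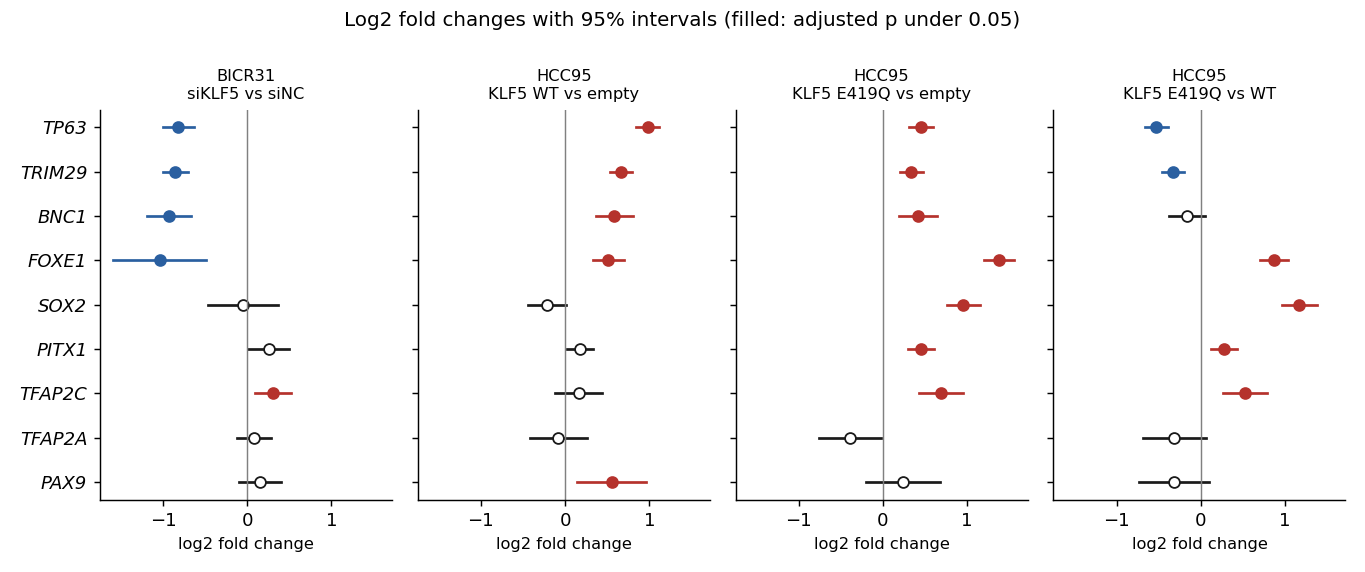
Log2 fold changes of the 9 genes (horizontal axis) with 95% intervals in the 4 comparisons. Filled points have an adjusted p below 0.05 (limma for BICR31, edgeR for HCC95), red for higher and blue for lower. SOX2 stands at 1.17 and TP63 at -0.53 for E419Q against WT.

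On the per-length scale (TPM), TRIM29 was the most abundant of the 9 genes in HCC95 with the empty vector (a mean of 258 TPM), followed by TP63 (155), PITX1 (147), FOXE1 (37.0), SOX2 (36.3), TFAP2A (20.04), TFAP2C (18.3), BNC1 (15.6) and PAX9 (7.04). SOX2 TPM was 24.9% and 21.7% of TP63 TPM in the empty-vector libraries, 9.44% and 9.76% with WT and 31.3% and 30.8% with E419Q. The ratio of SOX2 to TP63 was thus lowest in both WT libraries and highest in both E419Q libraries. In BICR31 with siNC, units per kilobase (using the mean effective lengths RSEM gave in HCC95) put TRIM29 first (2019), then TFAP2A (711), TP63 (652), TFAP2C (519), PITX1 (422), BNC1 (256), PAX9 (218), SOX2 (149) and FOXE1 (82.4). With siKLF5, TP63 dropped to 5th place, at 369.8 units per kilobase, below TFAP2A, TFAP2C and PITX1.

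The control levels of the 9 genes differed between the lines, as a description only, since the tables were scaled separately. In CPM, HCC95 with the empty vector exceeded BICR31 with siNC for FOXE1 (83.4 against 15.4, 5.42-fold), PITX1 (4.45-fold), TP63 (368 against 127, 2.89-fold), SOX2 (54.8 against 19.3, 2.83-fold) and TRIM29 (1.52-fold). BICR31 was the higher line for PAX9 (35.2 against 11.3, 3.12-fold), TFAP2A (2.68-fold), TFAP2C (2.35-fold) and BNC1 (1.36-fold). Ordered by mean CPM over all 5 groups, neighbouring groups had overlapping libraries for SOX2 (siKLF5 and siNC), for TFAP2A (E419Q and WT, WT and Empty, siNC and siKLF5) and for BNC1 (siNC and E419Q), and the other neighbours were separate. TP63 ran from siKLF5 through siNC, Empty and E419Q to WT, and SOX2 from siKLF5 through siNC, WT and Empty to E419Q.

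Across the 12 libraries, with log2 values centred within each line, TP63, TRIM29 and BNC1 moved alike, as did PITX1 and TFAP2C. Pearson's r was 0.94 for TRIM29 and BNC1, 0.93 for TP63 and TRIM29, 0.88 for TP63 and BNC1, and 0.95 for PITX1 and TFAP2C. TP63 and SOX2 had r = -0.07. FOXE1 had r = 0.74 with BNC1, 0.73 with TRIM29, 0.58 with TP63 and 0.59 with SOX2, beside 0.26 with PITX1 and 0.32 with TFAP2C. PAX9 reached at most 0.46 with any of the others, and TFAP2A none above -0.03. The points share their group and their library, so these r values describe the group pattern and carry no p. Over 10264 genes, the most alike in this measure were NCAPD2 (0.98) and RPS3 (0.96) for TP63, MFSD2A (0.93) and FZD7 (0.92) for SOX2, HOXD-AS1 (0.96) and TNK2 (0.94) for FOXE1, and CLNS1A (0.98) and PABPC1 (0.97) for TRIM29. For BNC1 AP3S1 (0.98) was among the most alike, for PITX1 they were TFAP2C (0.95) and C9orf16 (0.95), for TFAP2C AHNAK2 (0.96) and C9orf16 (0.95), for PAX9 NEURL1B (0.97) and NAB1 (0.95), and for TFAP2A MTOR (0.85) and MYO6 (0.83). Within BICR31 alone, r was only 0.49 for SOX2 with MFSD2A, 0.63 for SOX2 with FZD7 and 0.51 for TFAP2A with MYO6. The same pairs had 0.99, 0.96 and 0.96 within HCC95. All other pairs named here had r of at least 0.82 within each line.

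**Figure D4:**
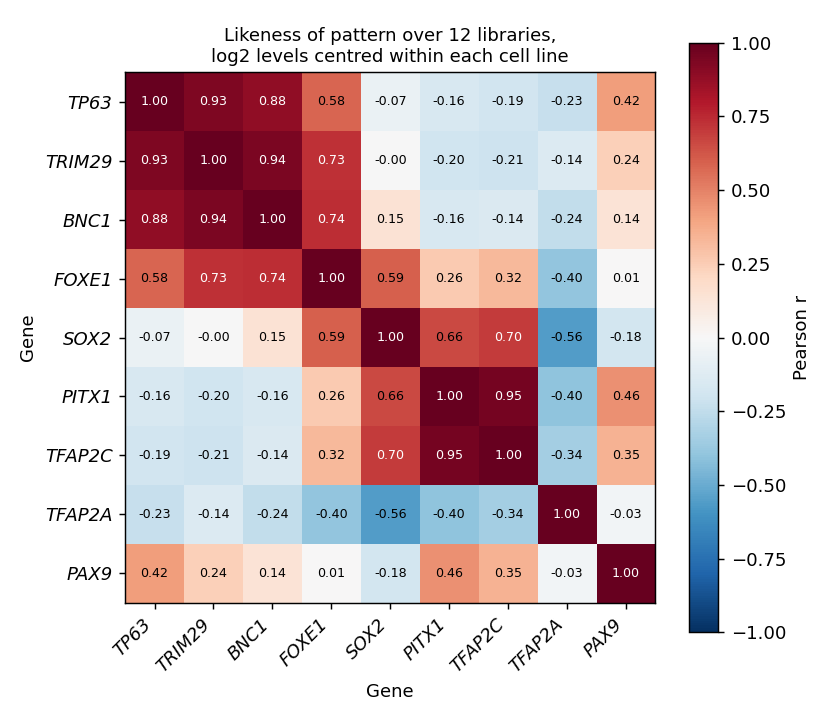
Pearson's r (colour and printed value) between each pair of the 9 genes over 12 libraries, log2 values centred within cell line. TP63, TRIM29 and BNC1 form 1 block (0.88 to 0.94) and PITX1 with TFAP2C another (0.95), while TP63 and SOX2 stand at -0.07.

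Relatives and neighbours of the 9 genes were read from 4 lists: 15 paralogs, 22 other squamous transcription factors, 25 genes known as p63 targets and 19 genes near SOX2 and TP63 on 3q (some genes are in more than 1 list). With siKLF5, 0 of 7 tested paralogs rose and 1 fell (median log2 fold change 0.01), 4 of 21 other squamous transcription factors rose and 2 fell (0.13), 6 of 25 p63 targets rose and 12 fell (-0.26), and 5 of 18 tested 3q genes rose and 4 fell (0.07), beside a median of 0.04 over all genes, of which 15.3% rose and 10.8% fell. The paralog that fell was SOX15, an HMG-box factor (log2 fold change -0.97). Among p63 targets, the basal keratin KRT5 (-0.62), the hemidesmosome integrin ITGB4 (-1.25) and the cell-cycle protein SFN (-0.61) fell, while P-cadherin (CDH3, 0.76) rose. HES2 (1.03) and GATA3 (0.89) rose among the transcription factors and RARG (-0.46) fell. On 3q, the tight-junction protein CLDN1 (1.40) and LPP (0.56) rose and ECT2 (-0.52) and ACTL6A (-0.42) fell, each of these named genes with an adjusted p of at most 0.000458 (limma). Without siKLF5 library A, siKLF5 library C or siNC library A, 1 rather than 2 transcription factors fell, without siNC library C 1 paralog rose, and without siKLF5 library A 3 rather than 5 3q genes rose. Without the mean-variance trend 3 p63 targets, 3 3q genes and 1 paralog rose and 2 3q genes fell, after quantile normalisation 3 3q genes rose, and with a pseudocount of 10 1 paralog rose.

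With WT against the empty vector, 1 of 6 tested paralogs rose and 2 fell (median log2 fold change 0.15), 1 of 19 other squamous transcription factors rose and 4 fell (-0.17), 10 of 25 p63 targets rose and 6 fell (0.04), and 4 of 18 3q genes rose and 4 fell (0.06), beside 0.00 over all genes, of which 10.8% rose and 12.1% fell. The p63 targets COL17A1 (hemidesmosomal collagen, 1.12) and LAMB3 (a laminin-332 chain, 0.79) rose, and the Notch ligand JAG1 (-1.35) and S100A2 (-0.66) fell. TP73 (0.37), another relative of p53, rose among the paralogs. RUNX1 (-0.86), IRX2 (-0.79), TRIM16 (-0.46), SOX21 (15 against 56 counts, 3.46-fold lower) and ZNF750 (11 against 52 counts, 4.38-fold lower), a differentiation factor, fell. CLDN1 (0.72), TFRC (0.34) and FXR1 (0.30) rose on 3q and EIF4G1 (-0.35) fell, each named gene with an adjusted p of at most 0.0169 (edgeR). TP73 lost its call without Empty library A (0.0790), WT library A (0.0783) or WT library B (0.0936), ZNF750 without WT library A (0.0541), and 2 rather than 4 3q genes fell without Empty library B, WT library A or WT library B. DESeq2 called no paralog higher and 1 lower, 2 transcription factors lower and 1 3q gene lower.

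With E419Q against the empty vector, 1 of 6 paralogs rose and 1 fell (median log2 fold change 0.30), 5 of 19 other squamous transcription factors rose and 4 fell (-0.19), 7 of 25 p63 targets rose and 11 fell (-0.09), and 5 of 18 3q genes rose and 5 fell (-0.00), beside 0.00 over all genes, of which 10.4% rose and 10.8% fell. SOX15 (0.44), BARX2 (0.71) and RARG (0.56) rose and TRIM16 (-0.50) and RUNX1 (-0.93) fell. ZNF750 had 2 counts over both E419Q libraries against 52 with the empty vector, a ratio of 20.7-fold lower with a 95% counting interval of 5.44 to 175. Among p63 targets the desmosomal protein PKP1 (0.66) rose, while JAG1 (-1.14) and S100A2 (-0.78) fell. On 3q TFRC (0.42) rose and TBL1XR1 (-0.39), TRA2B (-0.26) and EIF4G1 (-0.20) fell, each named gene with an adjusted p of at most 0.00652 (edgeR). SOX15 lost its call without E419Q library A (0.106) or Empty library B (0.0860), and TRA2B without E419Q library B (0.102) or Empty library B (0.0659). Without Empty library A the paralogs had 2 rises and the transcription factors 3, and without E419Q library B or Empty library B the transcription factors had 2 rises. Without E419Q library A 2 transcription factors fell and 3 3q genes rose, without E419Q library B 1 3q gene rose and 3 fell, and without Empty library B 2 rose and 3 fell. DESeq2 called no paralog higher, 1 transcription factor higher and 2 lower, and 1 3q gene higher and 2 lower.

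With E419Q against WT, 13 of 25 p63 targets fell and 3 rose (median log2 fold change -0.28), beside a median of -0.00 over all genes, of which 3.59% fell and 4.41% rose. Among the p63 targets were KRT5 (-0.60) and COL17A1 (-0.94), which fell, and the integrin ITGA3 (0.81) and the peroxidase GPX2 (0.77), which rose. The number of falls was 8 without E419Q library A, 8 without E419Q library B and 7 without WT library A. Of 6 paralogs 1 rose, SOX21 (2.42), and 0 fell (median 0.09). Of 19 other squamous transcription factors 2 rose, DLX3 (1.28) and RARG (0.39), and 1 fell, with a median of 0.11. Of 18 3q genes 1 rose, ABCC5 (0.38), and 2 fell, CLDN1 (-0.43) and TBL1XR1 (-0.30), with a median of 0.00. Each named gene had an adjusted p of at most 0.0119 (edgeR). DLX3 was lost without E419Q library B (0.245) or WT library B (0.179), RARG without E419Q library A (0.112), WT library A (0.0529) or WT library B (0.0655), ABCC5 without E419Q library B (0.127) or WT library B (0.137), and TBL1XR1 without E419Q library A (0.0593), E419Q library B (0.128) or WT library B (0.158). Without Empty library A or B, without the filter on low counts, or with only the 2 groups in the fit, 2 3q genes rose. DESeq2 called no transcription factor and no 3q gene higher, and 1 3q gene lower.

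Genes that overlap the 9 on the genome were looked up by ID in GENCODE 29. C5orf66, opposite PITX1, had at most 31 counts in HCC95 and 9 in BICR31, SLC25A21, opposite PAX9, at most 16 and 7.2 (beside 40 to 67 counts of PAX9 in HCC95), and TFAP2A-AS1 at most 2 and 5. Overlap was taken over whole gene spans. The sources used here do not say whether the counting used strand. Reads from any stretch shared with an opposite-strand partner may therefore not have been told apart.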

How the data were processed

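Per the labels' protocols, RNA was extracted with RNeasy columns and poly(A) libraries (12, in 5 groups) were made with NEB reagents. The submitters' processing notes name STAR, RSEM and the build hg19 without versions, and for HCC95 edgeR and limma too. The BICR31 files hold a signal that the authors deposited as normalised, by a method not given in the sources used here. Its step gave the estimated counts (81.7% to 82.7% of values above 0 whole within 0.02). The HCC95 files hold expected counts that the authors deposited unscaled, with TPM and gene lengths from RSEM, per the file headers. TPM served only for levels per length.

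For BICR31, limma 3.58.1 (empirical Bayes, trend) was run on log2(signal + 1) for the 15710 genes averaging 10 units or more. In HCC95, rounded expected counts of 12933 genes were tested with edgeR 4.0.16 (quasi-likelihood, TMM, filterByExpr), all 6 libraries in 1 fit, in R 4.3.3. All p-values are two-sided and Benjamini-Hochberg adjusted over all genes tested. Alternatives were another pseudocount, filter, scaling or trend, DESeq2 1.42.0, the replicate letter as a block, pairwise fits and leaving out each library. In HCC95, 3 counts correspond to 0.646 to 0.976 CPM. Intervals of count ratios are exact, at 95%, and cover counting error only.

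The 9 genes, the lists and the rules were chosen with earlier results of these data known. The genes named were the 9, KLF5, and from each list up to 4 genes with the smallest adjusted p among those called. The 2 most alike genes needed a mean of 100 units and 5 CPM. A few genes that these rules would name are not reported here.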

Additional observations from a re-analysis of the deposited data

Results flagged for a closer look

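Between the KLF5 forms in HCC95, the effects on 6 of the 9 genes differed by the direct edgeR test of E419Q against WT. The log2 differences, E419Q minus WT, were 1.17 for SOX2 (adjusted p = 1.72e-08), 0.87 for FOXE1 (1.03e-07), 0.53 for TFAP2C (0.00834) and 0.28 for PITX1 (0.0212), each higher in both E419Q libraries than in both WT libraries. They were -0.53 for TP63 (7.99e-06) and -0.33 for TRIM29 (0.00129), each lower in both E419Q libraries. The calls of TFAP2C and PITX1 were lost in 4 of 11 alternatives each, with log2 differences of 0.48 to 0.57 and 0.19 to 0.37 over all 11. The summed squamous markers, of which KRT5 had the most counts, were also lower with E419Q (13420 to 14273 CPM) than with WT (22029 to 23155 CPM). Of the 7 markers 4 were called lower (log2 fold change KRT17 -2.15, DSG3 -1.04, KRT5 -0.60 and DSC3 -0.28) and 0 higher. KRT14 (-0.18), PKP1 (0.03) and KRT6A (0.11) did not pass the test. The part of the markers in these differences was not tested.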

How the results depend on the processing

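The calls of TP63, TRIM29 and FOXE1 in every comparison, of SOX2 with E419Q, of BNC1 with siKLF5 and WT and of PITX1 for E419Q against the empty vector held in all alternatives run. Of 405 recomputed values for the 9 genes, 4 changed sign, none of them called. SOX2 with siKLF5 ranged from -0.22 (without siKLF5 library A) to 0.093 (without siKLF5 library B) when 1 library was left out, with 0.06 without siNC library A. TFAP2A with WT ranged from -0.31 (without WT library A) to 0.13 (without WT library B), with 0.09 without Empty library A. The number of all genes called fell from 4097 to 2281 without the mean-variance trend for siKLF5, and with DESeq2 from 2962 to 948 (WT), from 2737 to 963 (E419Q) and from 1034 to 387 (E419Q against WT). Leaving out 1 library gave 3194 to 3608 calls for siKLF5, 1719 (without WT library A; 1958 without WT library B) to 2792 for WT, 1626 (without E419Q library B; 1761 without E419Q library A) to 2603 for E419Q, and for E419Q against WT 597 (without E419Q library A), 607 (without E419Q library B), 627 (without WT library B) and 634 (without WT library A) up to 1172; where a group keeps 1 library, it is assumed to vary like the others. The cause of these shifts was not tested. edgeR on counts estimated from the BICR31 signal, an alternative chosen after seeing the data, called 4422 genes and the same number of the 9 genes, 5.

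Over all genes tested, libraries of the same letter deviated together with r of -0.03 to 0.03. Many of these genes had few counts, whose counting noise also draws r to 0, so r cannot decide whether the letters pair libraries. With the letter as a replicate block the calls numbered 4076, 2900, 2686 and 987; TFAP2A passed for E419Q against the empty vector (log2 fold change -0.41, adjusted p = 0.0482, edgeR) and PAX9 no longer passed for WT. With DESeq2, 5 of the 9 genes rather than 7 were called for E419Q and 4 rather than 6 for E419Q against WT. Counts were lowest for FOXE1 and SOX2 in BICR31 and PAX9 in HCC95. For SOX2 with siKLF5, the 95% interval of the fold, 0.725 to 1.29, includes both a modest fall and a modest rise.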
